A study of Homo sapiens with 2 samples.

Results

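The short and the long arm of human chromosome 9 carried 152289 of the 2634343 distinct nucleosome positions in the deposited list, or 5.78%. A position belonged to the short arm if it started below 43 Mb on hg38 and to the long arm if it started above 68 Mb. The short arm held 45813 positions and the long arm 106476. At the bounds themselves, the last 1-Mb bin of the short arm held 0.088 positions per kb and the next bin outside it 0.0175, while the first bin of the long arm held 1.36 and the bin before it 0.0674. The sequence between these bounds, which surrounds the centromere, held 1739 and was left out of both arms. Chromosome 9 was chosen by its density of positions in this same list, so that density against other chromosomes is given as a description and was not tested. Chromosomes 8, 10 and 11, with 151093, 117528 and 118122 positions, served for comparison.

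The positions come from MNase-seq of ARPE-19 cells, a human line established from the pigment epithelium of the retina, kept in normal culture and taken in interphase. After lysis, the chromatin was cut with the nuclease for 5 min at 37 °C, and DNA of about 150 bp was taken from a gel. The labels describe 2 batches of the same cells in the same state, which make 1 group with no treatment and no control. The batches share 1 list that names neither of them, so no spread between batches could be measured, no test was made, and all intervals below cover counting error only. Cell identity could not be checked against marker genes, because expression was not measured.

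A nucleosome is a stretch of DNA wound around a core of histone proteins, and micrococcal nuclease cuts the linker DNA between nucleosomes while sparing the wound part. Regularly spaced nucleosomes form arrays, and active promoters typically keep a nucleosome-depleted stretch just upstream of the start site, followed by a well-placed first nucleosome of the gene, called +1. Chromosome 9 is known for a large block of heterochromatin on its long arm next to the centromere and for flanking segments that occur in several near-identical copies. Its arms carry the type I interferon genes, clusters of olfactory receptor and lipocalin genes, and a gene-rich, GC-rich end of the long arm.

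Sequences from the hg38 reference show what the list records. In each arm, the first run of 5 positions by coordinate, away from exons and start sites and with each distance within 20 bp of 185 bp, shows 1 nucleosome after another. On the short arm it began at 761458, between genes, with distances of 173, 189, 196 and 177 bp. On the long arm it began at 69000152, in an intron of PIP5K1B, a phosphatidylinositol phosphate kinase, with distances of 166, 193, 175 and 166 bp. The stretches from the first to the next position of each run, chr9:761458-761631 and chr9:69000152-69000318 (plus strand), are shown with the listed bases at both ends in capitals.
Short arm array: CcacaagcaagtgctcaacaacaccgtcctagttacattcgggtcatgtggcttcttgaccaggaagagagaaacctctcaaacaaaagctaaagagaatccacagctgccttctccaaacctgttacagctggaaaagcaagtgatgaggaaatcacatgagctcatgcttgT
Long arm array: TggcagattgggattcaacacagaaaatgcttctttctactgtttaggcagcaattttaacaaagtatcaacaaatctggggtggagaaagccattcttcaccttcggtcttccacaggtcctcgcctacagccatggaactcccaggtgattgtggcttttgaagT

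In each arm, the first start site by coordinate that lies inside a CpG island, has no position from -200 to +50 bp and has a position from +75 to +200 bp stands for the promoters described further on. On the short arm this was KIAA2026, with a listed position 110 bp downstream of its start site. On the long arm it was PABIR1, with positions 218 bp upstream and 140 bp downstream. The 100 bp upstream of each start site are given 5′ to 3′ in the direction of the gene, at chr9:6008483-6008582 (minus strand) and chr9:68779965-68780064 (plus strand), with CpG dinucleotides in capitals. The KIAA2026 stretch has 6 CpG and the PABIR1 stretch 15.
KIAA2026 promoter: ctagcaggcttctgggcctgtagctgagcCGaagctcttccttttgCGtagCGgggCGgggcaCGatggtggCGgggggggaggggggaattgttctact
PABIR1 promoter: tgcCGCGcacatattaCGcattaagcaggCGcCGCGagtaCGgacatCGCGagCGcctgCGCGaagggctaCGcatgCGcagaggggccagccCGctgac

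Both arms were denser in positions than the mean of the comparison arms, and the long arm was the denser of the pair. The long arm carried 1.52 positions per kb of determined sequence and the short arm 1.07. The 6 arms of chromosomes 8, 10 and 11 ranged from 0.803 to 1.12, with a mean of 0.947 ± 0.114 (SD, n = 6 arms). The long arm was thus 1.6 times their mean (95% interval for counting error 1.59 to 1.62) and lay above all 6. The short arm, at 1.13 times their mean (1.12 to 1.14), lay below the short arm of chromosome 8 at 1.12 positions per kb.

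Positions follow GC content, and the arms of chromosome 9 differ in it. The long arm has 42.9% GC and the short arm 39%. To allow for sequence composition, the number of positions was divided by an expected number. That number assumes that each base carried the genome-wide density of sequence with its GC content. On this scale the short arm reached 1.36 times its expectation and the long arm 1.48 times, against 0.843 to 1.26 for the 6 comparison arms. The ratio of the long to the short arm was 1.42 in positions per kb (1.41 to 1.44) and 1.08 against the GC expectation (1.07 to 1.10). The part that GC content has in the difference between the arms was not tested beyond this scaling.

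In 1-Mb bins with at least 0.8 Mb determined, the short arm gave 43 bins and the long arm 69. The bins starting at 68 and 138 Mb had less determined sequence and were left out, with 1057 and 379 positions. Over the short arm the density ran from 0.088 to 1.76 per kb with a median of 1.14. Over the long arm it ran from 0.780 to 2.19 with a median of 1.48. Against the GC expectation the medians were nearly the same, 1.54 for the short and 1.51 for the long arm, while the medians of the comparison arms ran from 0.835 to 1.26. Among all autosomes, chromosome 9 had the second highest median of this ratio, 1.51, after chromosome 15 at 1.67 and ahead of chromosome 2 at 1.24.

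**Figure D1:**
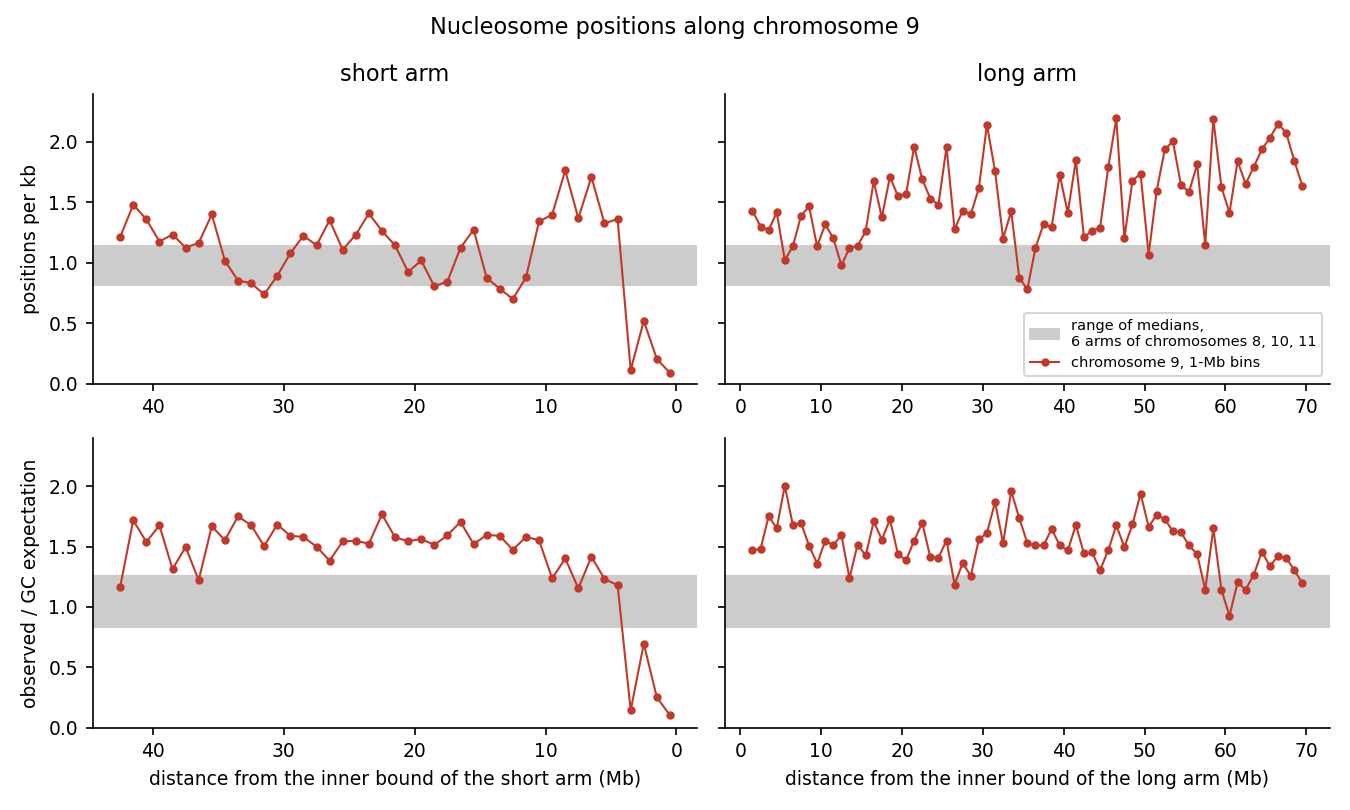
Density of nucleosome positions in 1-Mb bins of chromosome 9, as positions per kb (top) and as observed over GC-expected number (bottom), by distance from the inner bound of each arm in Mb. Points are single bins of the 1 list and the grey band spans the medians of the 6 comparison arms. The inner 4 bins of the short arm, 39 to 43 Mb, fall far below the band, and the bottom panel is flatter than the top panel elsewhere.

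A bin was counted as dense if it held at least 1.5 times the median of the autosomal bins, that is 1.33 positions per kb. Of all autosomal bins 13.2% were dense, against 45 of 69 (65.2%) on the long arm and 11 of 43 (25.6%) on the short arm. By the same rule on the GC-expected scale, with a limit of 1.56, the share was 3.86% of autosomal bins, 24 of 69 on the long arm (34.8%) and 15 of 43 on the short arm (34.9%). Nothing is read from these counts, because density is what chromosome 9 was chosen for. On the GC-expected scale the comparison arms had no bin past the limit except the short arm of chromosome 8, which had 1.

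The same order held at matched GC content. Without the inner 4 Mb of the short arm, the pooled density of chromosome 9 bins was 1.33 to 1.51 times that of chromosomes 8, 10 and 11 in each of 6 GC classes from 35 to 60%. Against chromosome 8 alone the ratio was smaller, from 1.11 at 48 to 60% GC to 1.33 at 44 to 48%. At 48 to 60% GC, the median of 4 bins on the long arm of chromosome 8 was 1.84 per kb, against 1.82 for 10 bins on the long arm of chromosome 9. In the class from 35 to 37% GC, chromosome 9 bins held 0.872 positions per kb and the comparison bins 0.578. In the class from 44 to 48%, the values were 1.86 and 1.23. Across bins, density rose with GC content, with r = 0.57 over the 43 short arm bins and r = 0.74 over the 69 long arm bins. The ratio to the GC expectation still fell with GC content, with r = -0.31 on the short arm and -0.54 on the long arm. For the 6 comparison arms that r ran from -0.34 to 0.11, so only the long arm of chromosome 9 lay outside their range. There the scaling did not remove GC content. Both r values of the short arm include its inner 4 Mb. Neighbouring bins share base composition and all come from the same list, so these values only describe it.

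**Figure D2:**
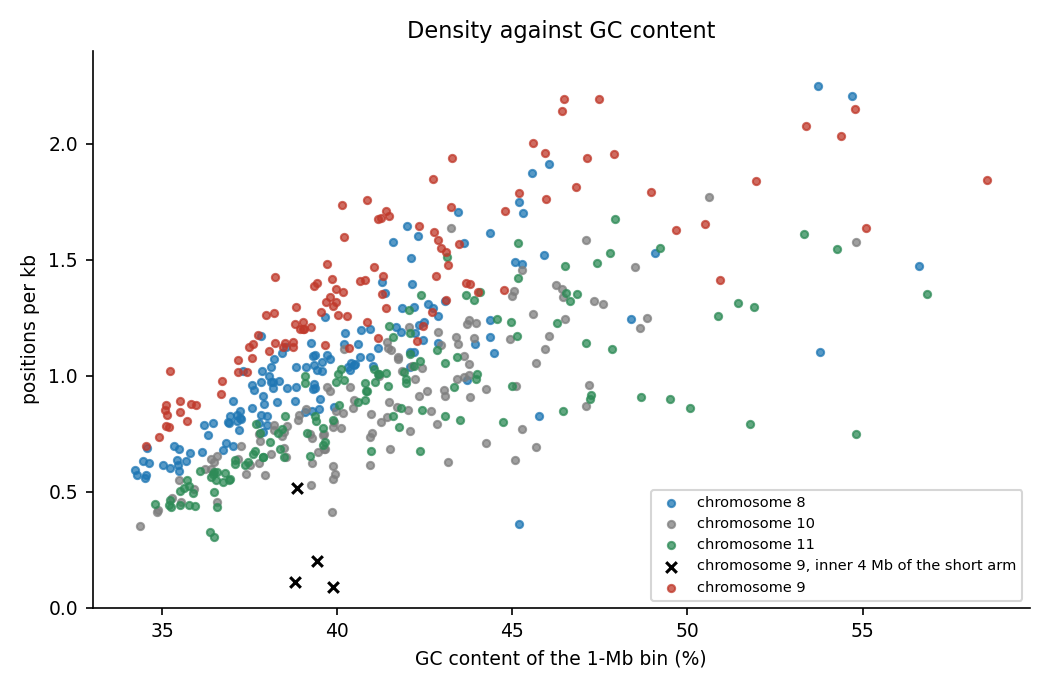
Positions per kb against GC content (%) of 1-Mb bins of chromosomes 8, 9, 10 and 11, each point a bin. Red points of chromosome 9 lie mostly along the upper edge at a given GC content, while the inner 4 Mb of its short arm, drawn as black crosses, lie at the bottom with 0.088 to 0.518 positions per kb.

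The densest short arm bins were at 34 to 35 Mb with 1.76 positions per kb, at 36 to 37 Mb with 1.71 and at 1 to 2 Mb with 1.48. The bin at 34 Mb holds 26 start sites and the genes KIF24, UBAP1 and DNAI1, the last an axonemal dynein chain of motile cilia. The bin at 36 Mb holds PAX5, a transcription factor that sets B cell identity, and CLTA. The bin at 1 Mb holds parts of SMARCA2, an ATPase of the SWI/SNF chromatin remodeller, and DMRT2. The densest long arm bins were at 114 to 115 Mb with 2.19 per kb (COL27A1, WHRN, AKNA), at 126 to 127 Mb with 2.19 (MVB12B, LMX1B, RALGPS1) and at 134 to 135 Mb with 2.15 (COL5A1, RXRA, BRD3). Their GC content, 46.5, 47.5 and 54.8%, was above that of the whole arm.

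The sparsest long arm bins were the gene-poor and AT-rich ones. The bin at 103 to 104 Mb had 0.780 positions per kb, the bin at 102 to 103 Mb had 0.873 and the bin at 80 to 81 Mb had 0.978, with 35.2, 35.1 and 36.7% GC. Of protein-coding genes, CYLC2, which encodes a cytoskeletal protein of sperm heads, lies across the first 2 of these, and none lies in the last. Against the GC expectation, the same bins stood at 1.53, 1.74 and 1.59, above the arm's median. The sparsest short arm bins, at 42, 39 and 41 Mb, had 0.088, 0.111 and 0.203 positions per kb and stayed low against the GC expectation, at 0.104, 0.144 and 0.252.

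GC-corrected density was not even along the arms. The bounds used here came from these same values, so the contrasts between stretches only describe the list. The best single split fell at 32 Mb for short arm density below 39 Mb, and at 125 Mb for the long arm's GC-expected ratio. Below 32 Mb the short arm carried 1.08 positions per kb, 1.54 times its GC expectation, at 37.9% GC. From 32 to 39 Mb, where GC was 43.8% and 107 start sites lie, it carried 1.47 per kb but 1.30 times the expectation. On the long arm up to 125 Mb the values were 1.46 per kb and 1.55 times the expectation, at 41.1% GC. From 125 Mb to the end, with 51.2% GC and 244 start sites, density was higher at 1.80 per kb and the ratio lower at 1.28. The lowest ratio of the long arm, 0.927, was in the bin at 128 to 129 Mb, which holds 32 start sites and the genes SPTAN1 and DNM1. The highest, 2.00, was at 73 to 74 Mb, with parts of ALDH1A1, a retinaldehyde dehydrogenase, and ANXA1, a phospholipid-binding annexin.

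**Figure D3:**
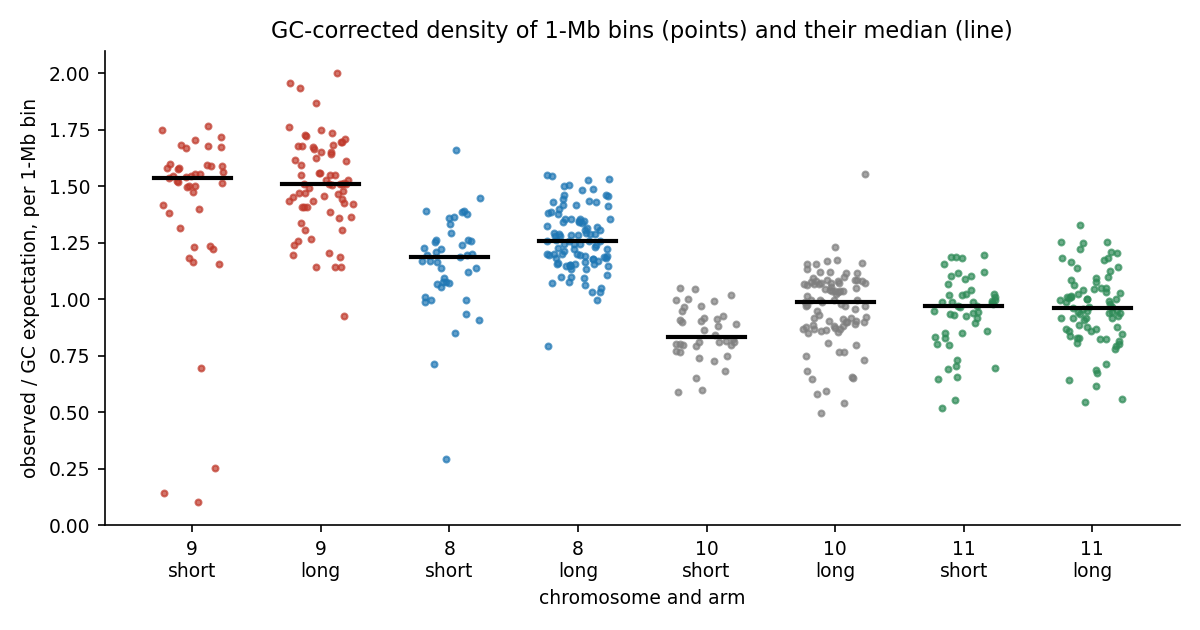
Observed over GC-expected number of positions per 1-Mb bin for the arms of chromosomes 9, 8, 10 and 11. Points are bins, spread sideways for visibility, and lines are medians. The medians of both chromosome 9 arms, 1.54 and 1.51, lie above the 6 others, and the inner 4 bins of the short arm lie at 0.104 to 0.696.

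The largest step along the short arm was a fall close to its inner end. Comparing the mean density of 5 bins on either side of each boundary, the step was -1.73 on the log2 scale at 38 Mb, from 1.51 to 0.456 positions per kb. A single split of the arm fell at 39 Mb, with means of 1.15 below and 0.230 above. The 39 Mb below held 44894 positions and the 4 Mb above held 919, which is 0.291 times their GC expectation. The largest steps of the 6 comparison arms ranged in size from 0.48 to 1.07 on the same scale. With the inner 4 Mb left out, the largest short arm step was a rise of 0.75 at 32 Mb, from 0.902 to 1.52 per kb. Against the GC expectation it was -0.27 and lay at 33 Mb.

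The edge lay within 3 neighbouring windows of 10 kb. From 37.8 to 38.8 Mb there were 1567 positions and from 38.8 to 39.8 Mb there were 92. The 10-kb window at chr9:38760001-38770000 held 16 positions, the next 6 and the one after it 1. Sequence that occurs more than once on chromosome 9 changed at the same place. The share of 31-base words found again on the chromosome, on either strand, was 8.84, 57.5 and 91.5% in these 3 windows. The bound of the 1-Mb stretches, 38.8 Mb, was itself set by this share in wider windows. Their own shares, 14.9% before it and 88.9% after it, therefore follow from that choice. The part of repeated sequence in the fall was not tested, since the list gives no mapping quality.

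The long arm had a mirrored edge at its inner end. The bound at 68.4 Mb was again set by the share of repeated 31-base words. From 67.4 to 68.4 Mb there were 74 positions, with 92.5% repeated words, and from 68.4 to 69.4 Mb there were 1633, with 8.50%. The change fell inside PGM5, which encodes a phosphoglucomutase-like protein of cell adhesions. The window chr9:68410001-68420000 held 5 positions with 40.8% repeated words, and the next held 11 with 4.86%. Within the arm proper, the largest step was -0.63 on the log2 scale at 100 Mb, from 1.67 to 1.08 per kb, between the bins of COL15A1 and TGFBR1 on one side and INVS on the other. Against the GC expectation the largest step lay elsewhere, at 124 Mb, and was -0.39.

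Over the whole of both arms the repeated share was otherwise low. Among bins below 38 Mb its median was 7.11% (4.90 to 18.8%), and from 69 Mb on the long arm it was 8.16% (3.83 to 20.9%). In the 4 bins from 39 to 43 Mb it was 87.4% (76.0 to 89.7%). The genes in those bins include CNTNAP3 and CNTNAP3B, near-identical copies that encode a cell adhesion protein of the neurexin family. CNTNAP3 held 52 positions in 224 kb and CNTNAP3B 7 in 239 kb, or 0.233 and 0.0293 per kb.

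Gaps over 10 kb between neighbouring positions numbered 104 among 45812 pairs on the short arm, of which 68 lay between 39 and 43 Mb. The long arm had 36 among 106475 pairs. The 6 comparison arms had 74 to 244, in arms of 30522 to 99497 pairs. The longest on the short arm spanned 265 kb, from 40450103 to 40714875, with 94.0% repeated 31-base words. The longest on the long arm spanned 90.5 kb, from 89826752 to 89917224, with 7.97% repeated words and no protein-coding gene. From its GC content, 114 positions were expected there at the genome-wide density. From 68.4 Mb on, 9 gaps exceeded 20 kb, and they were of different kinds. In 3 of them at least 97.1% of the words were repeated, among them 36.7 kb inside TRPM3 and 29.6 kb at SPATA31D4 and SPATA31D3. In the other 6 the share was 3.39 to 10.7%, among them 37.1 kb in HMCN2, 37.8 kb at ADAMTSL2 and FAM163B, and 48.1 kb at CCDC187.

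A few windows were overfull. Laid end to end, 66 fragments of 150 bp fill 10 kb. More were held by 3 of 4293 windows of the short arm and 1 of 7008 of the long arm. So did 9 of 4282 windows on the short arm of chromosome 8 and 11 of 9054 on the long arm of chromosome 10. The remaining comparison arms had 0. On chromosome 9 the median window held 10 positions on the short arm and 14 on the long arm. The short arm windows, between 40.88 and 40.93 Mb, held 69, 76 and 112 positions in the midst of the sparse inner 4 Mb, and the fullest contains MIR1299. The long arm window, chr9:137880001-137890000, held 85 positions at the start of CACNA1B, a neuronal calcium channel subunit, where only 1.53% of the words were repeated on the chromosome. Of the neighbour pairs in that window, 29.8% were closer than 60 bp.

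Spacing between nucleosomes was close to that of the comparison arms. The most frequent distance above 100 bp between neighbours was 182 bp on the short arm and 180 bp on the long arm, against 181 to 184 bp. Over all pairs, maxima on the short arm fell at 184, 373, 558, 739 and 940 bp and on the long arm at 186, 374, 564, 745 and 937 bp. The slope through them gave a repeat length of 187.8 and 187.3 bp, within the range of 186.5 to 188.4 bp of the comparison arms. The median neighbour distance was 490 bp on the short arm and 370 bp on the long arm.

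The depth of the periodic pattern was lower on chromosome 9. The first maximum of the all-pairs histogram stood 2.90 times above the following trough on the short arm and 3.18 times on the long arm, below the 3.30 to 4.52 of the 6 comparison arms. In bins with 0.8 to 1.2 positions per kb, the ratio was 3.17 on chromosome 9, 3.38 on chromosome 8, 4.22 on chromosome 10 and 3.89 on chromosome 11. The order was therefore the same at like density, though the distance to chromosome 8 was small and no spread between samples is known. These bins were not matched on GC content. In those with 1.0 to 1.2 per kb, median GC content was 37.9% on the short and 38.5% on the long arm, against 41.6% on chromosomes 8, 10 and 11.

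**Figure D4:**
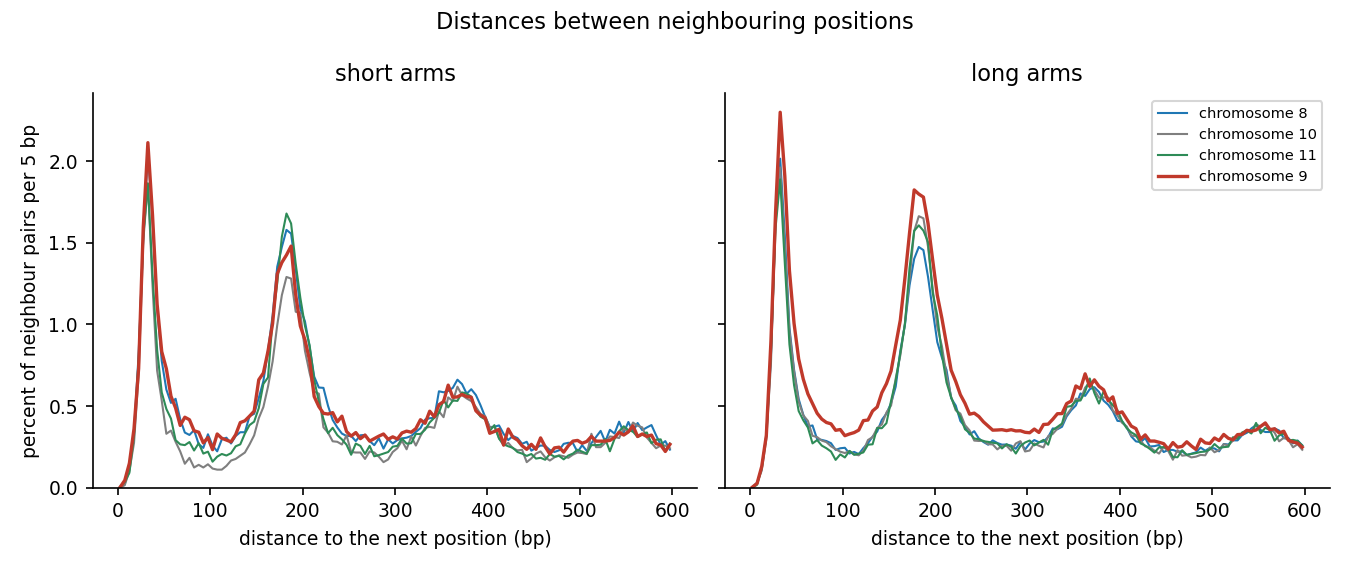
Distance from each position to the next, in bp, as percent of neighbour pairs per 5 bp, for the short arms (left) and long arms (right) of chromosomes 8 to 11. All curves have a narrow maximum near 33 bp and broader ones near 182 bp and its multiple, and the chromosome 9 long arm lies highest at both of the first maxima.

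Over whole arms, regular neighbours made up a larger share on the long arm than on the comparison arms, but at matched density the order turned. Pairs within 20 bp of 185 bp apart made up 12.7% of its pairs (95% Wilson interval 12.5 to 12.9%) and 9.84% on the short arm (9.57 to 10.1%), against 8.64 to 11.1% in the comparison arms. Runs of at least 5 positions at such distances numbered 106 on the long arm, or 1.51 per Mb, and 20 on the short arm, or 0.465 per Mb. The comparison arms had 0.316 to 0.961 per Mb. Isolated positions, with more than 1000 bp to both neighbours, were rare on the long arm at 5.56% and made up 10.1% on the short arm, against 9.94 to 17.4%. In bins with 1.2 to 1.4 positions per kb, regular pairs made up 9.92% on the long arm and 10.3% on the short arm, against 13.1% on chromosomes 8, 10 and 11. In bins with 1.7 to 2.3 per kb, the shares were 15.4, 15.4 and 16.3%. Bins of like density were not matched on GC content. Its median was 39.8, 40.5 and 44.2% in the first of these classes and 46.5, 45.4 and 45.8% in the second. The long arm was below the comparison chromosomes in each density class from 1.0 per kb up, and the short arm in each class. At matched GC content chromosome 9 was above the pooled comparison chromosomes in each class from 35 to 48% GC. At 44 to 48% GC the shares were 15.1 and 13.0%. At 48 to 60% GC they were 16.8 and 16.6% with overlapping intervals, and chromosome 8 alone was higher at 17.9%.

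Pairs closer than 60 bp, whose fragments overlap, were more frequent on the long arm than on any comparison arm. They numbered 4546 on the short arm, 9.92% of neighbour pairs (9.65 to 10.2%), and 11786 on the long arm, 11.1% (10.9 to 11.3%). The comparison arms had 7.64 to 9.56%, and the interval of the highest, the short arm of chromosome 8 (9.30 to 9.83%), overlaps that of the chromosome 9 short arm. Below 39 Mb the short arm had 9.71%. The most frequent distance among close pairs was 33 bp on both arms. The share rose with density: on the long arm it was 9.34% in bins with 1.0 to 1.2 positions per kb and 12.2% in bins with 1.7 to 2.3. At matched density the difference narrowed. In bins with 0.8 to 1.2 positions per kb the share was 8.92% (8.51 to 9.35%) on the short arm and 9.12% (8.59 to 9.67%) on the long arm, against 8.62% (8.49 to 8.76%) on chromosomes 8, 10 and 11. The intervals of both arms overlap that of the comparison chromosomes.

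At matched GC, the close share of chromosome 9 was above the pooled comparison, at 8.78% against 7.12% for 35 to 37% GC and 12.6% against 9.55% for 44 to 48% GC. Chromosome 8 alone came closer, with 10.3% (10 to 10.6%) against 10.8% (10.5 to 11.1%) at 41 to 44% GC and 11.1% (10.5 to 11.7%) against 11.2% (10.7 to 11.6%) at 48 to 60% GC, where the intervals overlap. The bin at 40 to 41 Mb, which contains the overfull windows, stood apart with 29.2% close pairs. The sequence at positions was richer in GC than the sequence between them, by 6.38 percentage points on the short arm and 6.64 on the long arm. Values in the comparison arms were 5.51 to 6.76. Around short arm positions the mean GC content was 46.1%, and midway between neighbours over 300 bp apart it was 39.7%.

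Of the 768 protein-coding start sites of the arms, those inside CpG islands showed a depleted stretch from -200 to +50 bp in positions per kb. Those outside showed none beyond counting error in this window. The contrast was small on the long arm against the GC expectation. Inside islands, the window from -200 to +50 bp held 0.349 positions per kb at 114 short arm sites and 0.441 at 361 long arm sites. Flanks at 1000 to 2000 bp held 0.973 and 1.17. The log2 ratios were -1.48 ± 0.47 and -1.41 ± 0.23 (standard error from counting), within the -1.90 to -1.12 of the comparison arms. The flanks of chromosome 9 island sites were denser than the 0.556 to 0.813 per kb of the comparison arms, and the windows at the 1472 comparison sites held 0.283 per kb. Measured against the GC expectation, the ratios were -1.0 and -0.48.

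Outside islands the window was not depleted beyond counting error. It held 1.39 positions per kb at 100 short arm sites, with flanks at 1.28, and 1.38 at 193 long arm sites, with flanks at 1.64. The log2 ratios were 0.12 ± 0.26 and -0.25 ± 0.19, within the -0.50 to 0.24 of the comparison arms. On the GC-expected scale they were -0.24 and -0.33, so the short arm value changed sign, and on the long arm sites inside islands at -0.48 and outside at -0.33 differed by less than their errors. CpG islands as a whole were thinly covered. They made up 0.460% of the short arm's bases and 0.284% of its positions, and 0.946% of the long arm's bases and 0.401% of its positions. Exons held a slightly larger share of positions than of bases, 2.97 against 2.32% on the short arm and 4.19 against 3.95% on the long arm. Scaled to the GC expectation the order turned, with exons at 1.31 and 1.37 times and the whole arms at 1.36 and 1.48 times.

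The profile in 25-bp steps placed the features of the island sites. Directly upstream, from -25 to 0 bp, no position was listed in either arm over 11.9 kb of sequence. The 95% Poisson interval there reaches up to 0.311 per kb. The +1 nucleosome lay at 125 to 150 bp downstream, with 43 positions or 3.62 per kb (95% Poisson interval 2.62 to 4.88). At the same place the comparison chromosomes had 2.47 per kb (1.99 to 3.04), and the intervals overlap. The next nucleosome, at 300 to 325 bp, stood at 1.52 per kb (0.898 to 2.4) on chromosome 9 and 0.707 (0.462 to 1.04) on the others. Upstream, the short arm had a narrow maximum from -275 to -250 bp, with 12 positions or 4.21 per kb, where the long arm had 1.88. The step after it, from -250 to -225 bp, held 1 position on the short arm, so the maximum rests on few counts. Sites outside islands had their highest step at the same 125 to 150 bp, with 3.96 per kb (2.65 to 5.69) against 3.07 (2.48 to 3.75).

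**Figure D5:**
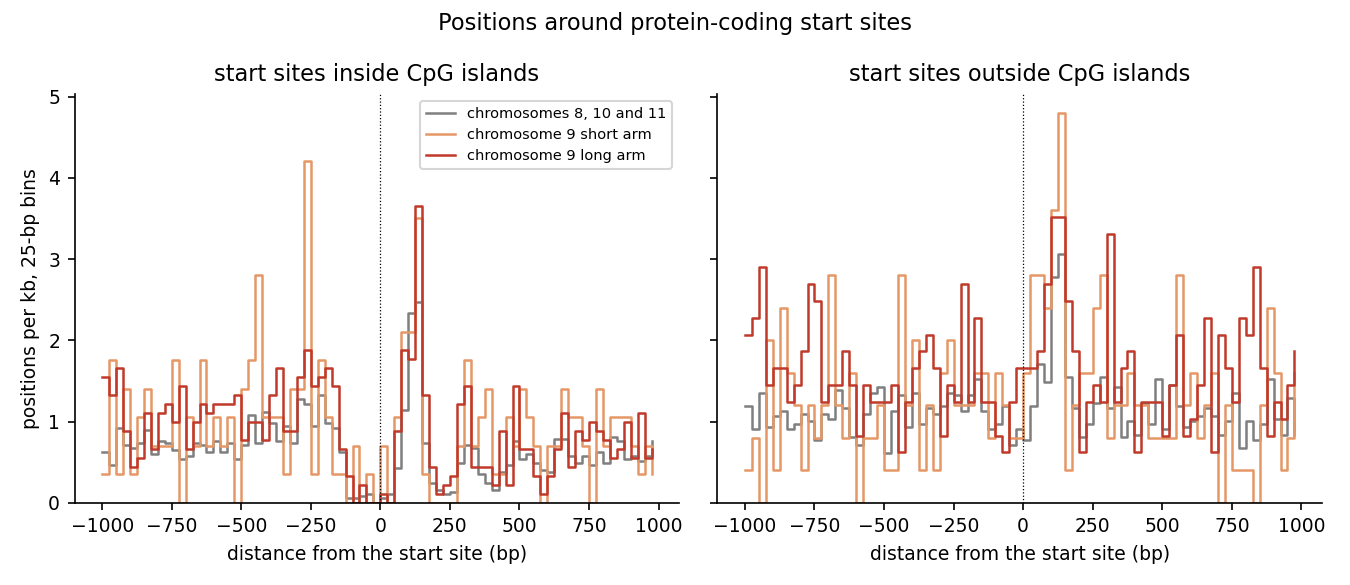
Positions per kb in 25-bp steps by distance from the start site in bp, for sites inside (left) and outside (right) CpG islands, on the short and long arm of chromosome 9 and on chromosomes 8, 10 and 11 together. Island sites have an empty stretch just upstream of 0 bp and a maximum at 125 to 150 bp. Short arm curves rest on 114 and 100 sites and are the most uneven.

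Genes with steady activity in most cells had a lower median body density than the arms' genes as a whole. Over all 768 genes the median body density was 1.31 per kb, or 1.21 times the GC expectation. The 13 housekeeping genes had a median of 0.820 per kb (0.849 times the expectation). VCP, an ATPase of protein quality control, had 4 positions in 18.7 kb, or 0.213 per kb. HNRNPK, an RNA-binding protein, had 3 in 12.6 kb, or 0.239 per kb. SPTAN1, the non-erythroid alpha spectrin, had 0.616 per kb and 0.461 times its expectation. The window at the start site was empty in 12 of the 13, and 6 of the 13 had a position from +75 to +200 bp. Over all genes, 83.6% had an empty window and 23.8% such a +1 position.

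The 4 ribosomal protein genes and the 6 genes of the surfeit cluster, which share RPL7A, had medians of 0.654 and 0.598 times the expectation. RPL35 had no position in its 4.10 kb, and RPS6 had 4 in 4.52 kb. In the surfeit cluster, a tight group of housekeeping genes near the end of the long arm, values ran from 0.405 per kb at SURF6 to 2.03 at SURF1, an assembly factor of cytochrome oxidase. All 4 and all 6 start windows were empty, as were 90.1% of those of all genes that start in an island.

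The olfactory receptor and lipocalin genes had higher medians than all genes. The 26 olfactory receptor genes, 23 of them on the long arm, had a median of 2.11 per kb (1.91 times the expectation), and none starts in an island. OR5C1 and OR1J1 had 6 positions each in under 1 kb, or 6.23 and 6.19 per kb, while OR13C5 had none. These genes are short, so single values rest on few positions. The 16 lipocalin genes, which encode small carriers of lipids, had a median of 1.79 per kb and 9 positions within 2000 bp of the start site, against 4 over all genes. AMBP, the precursor of a plasma protease inhibitor, had 65 positions in 18.2 kb and LCN2, an iron-siderophore carrier of innate immunity, 17 in 4.38 kb.

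The 17 type I interferon genes, all on the short arm and all outside islands, had a median of 1.19 per kb, or 0.946 times their expectation, against 1.31 per kb and 1.21 times for all genes. IFNA5 had 4 positions in 0.988 kb, IFNB1 had 1 in 0.840 kb, and IFNA1, IFNA7, IFNA14 and IFNE had none. Of the nearby cell cycle inhibitor locus, CDKN2A had 24 positions in 27.6 kb, CDKN2B had 2 in 6.40 kb and MTAP had 120 in 135 kb. Their median was 1.01 times the expectation.

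Long genes of cell adhesion and the nervous system stood at 1.64 times their expectation in the median of 10. PTPRD, a receptor tyrosine phosphatase of synapses and the longest gene of the arms, held 2032 positions in 2299 kb, or 0.884 per kb, which is 1.7 times what its 35.5% GC predicts. ASTN2, an astrotactin of neuronal migration, held 1894 in 992 kb, or 1.91 per kb. GABBR2, a subunit of the GABA-B receptor, had 2.39 per kb. CNTNAP3, inside the repeated inner stretch of the short arm, was the exception at 0.323 times its expectation.

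Among 16 developmental regulators the values were widely spread, from 0.483 times the expectation at BARX1, a homeobox gene, to 2.78 at NR5A1, a nuclear receptor of steroid-forming tissues. KLF4, a pluripotency factor, had 3 positions in 5.63 kb, and LMX1B, a homeobox gene of limb and eye, 291 in 87.1 kb. The 14 extracellular matrix genes had a median of 1.52 times the expectation, with COL27A1 at 2.93 per kb, SVEP1 at 1.44 and TNC, tenascin C, at 1.26. The 3 DMRT genes of sex determination had a median of 1.7 times the expectation, led by DMRT3 at 2.06. The 9 immune signalling genes had a median of 1.48 times, with the chemokines CCL21 and CCL19 at 6.18 and 4.10 per kb and JAK2, a cytokine receptor kinase, at 0.907.

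Genes of the retina and pigment epithelium, the tissue the cell line comes from, had a median of 1.24 times the expectation over 12 genes, near that of all genes. SLC24A2, a cone photoreceptor exchanger, stood at 1.98 times and TRPM3, an ion channel gene that hosts a microRNA of the pigment epithelium and is also counted among the long genes, at 1.91. TRIM32 and TOPORS were low, at 0.637 and 0.677 times. Of the 12, 11 had an empty start window (91.7%, against 83.6% of all genes) and 5 a +1 position (41.7%, against 23.8%). Over the gene lists this last share ran from 0 to 46.2%, with 38.5% among the 26 olfactory receptor genes. Each list is short, so nothing is read from these shares. The 6 chromatin genes, 10 genes of tumour and growth control and 11 zinc finger genes had medians of 1.15, 1.19 and 1.38 times the expectation. ABL1, a tyrosine kinase, had 160 positions in 175 kb and NOTCH1, a receptor of cell fate, 79 in 51.6 kb.

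Among gene bodies of at least 20 kb, the 5 densest of the long arm were NR5A1 (4.16 per kb), LMX1B (3.34), ADGRD2 (3.16), LAMC3 (3.06) and KCNT1 (2.95), with 53.7 to 61.6% GC. On the short arm they were CNTFR, a subunit of the ciliary neurotrophic factor receptor, with 3.9 per kb, followed by PAX5, PHF24, TMEM8B and DNAI1 with 2.69 to 2.49. The sparsest of the long arm were ZNG1C at 0.0588 per kb, in the repeated edge, and then UGCG, a glucosylceramide synthase, at 0.467, MFSD14B at 0.474, CYLC2 at 0.518 and UBQLN1 at 0.563. CYLC2, with 30.4% GC, was nonetheless at 1.74 times its expectation, while UGCG was at 0.546. Sparsest on the short arm were ZNG1F, CNTNAP3B, ZNG1A, CNTNAP3 and ENSG00000283886, with 0.0147 to 0.259 per kb. The most positions within 2000 bp of a start site were 18 at AMBP and at DBH, the enzyme that makes noradrenaline, and 17 at NR5A1. On the short arm they were 15 at SAXO1 and 14 at AQP3, an aquaporin that also carries glycerol, and at CCL19.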

How the data were processed

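The authors deposited 1 list of 2634347 rows for the series, each a chromosome, start and end of a 1-bp interval per the file header. Its values are positions, with no height, score or p-value. Bowtie2 and the builds hg38 and GRCh38 are named in the submitters' processing notes. The caller, fragment filter, threshold, read depth and any pooling of the 2 batches are not given in the sources used here. How the positions were called could change every density, and each position counts once whatever its support.

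From this list, 4 repeated rows were dropped, none of them on chromosome 9. Counts per bin were divided by determined bases (not N) of the hg38 reference. For the GC expectation, bases were classed by the GC content of the surrounding 200 bp, in steps of 2%, and weighted by the density of their class in the whole genome. Arms of the other chromosomes were those below 43 and above 48 Mb (chromosome 8), below 38 and above 43 Mb (10), and below 50 and above 56 Mb (11). Steps compared 5 bins on either side. Histograms were smoothed by 11 bp (neighbours) and 31 bp (all pairs), and repeat lengths are slopes through maxima 1 to 5. Start sites were 1 per protein-coding gene of GENCODE 44 (MANE Select where given). CpG islands came from a running score (+17 per CpG, -1 otherwise), kept if over 500 bp long, with GC of 55% or more and CpG above 0.65 of the expected number. Gene bodies ran over the annotated gene.

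The text names members of gene lists, the 3 densest and 3 sparsest bins, the 5 densest and 5 sparsest bodies of at least 20 kb and the 3 genes with most positions within 2000 bp of the start site in each arm, and genes at the steps. A gene of 1 such bin and the example sequences of close pairs are not reported here. These lists, and chromosome 9 itself, were chosen with earlier results of these data known. Genes named at gaps, overfull windows and the highest and lowest GC-corrected bins of the long arm were picked after their values were seen. Shares carry 95% Wilson intervals and rates exact Poisson intervals. Scripts were tested on simulated data and used Python 3.11.15, numpy 2.4.6, pandas 2.3.3, scipy 1.17.1 and matplotlib 3.10.9.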

Additional observations from a re-analysis of the deposited data

Results flagged for a closer look

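Outside both arms, 1739 positions of chromosome 9 lay between 43 and 68 Mb, in 8 of the 1-Mb bins there. They drew attention because no comparison used them and they exceed the 3 counts that an empty stretch would allow. Of these, 1479 lay from 62 to 65 Mb, and the whole stretch had 0.200 positions per kb over 8.69 Mb of determined sequence. It also held 4 of the overfull 10-kb windows, with 73, 91, 126 and 74 positions, in which 69.9, 85.5, 55.2 and 92.8% of the 31-base words were repeated on the chromosome.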

How the results depend on the processing

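Across 15 results and 47 alternative settings, 21 values stayed within the error of the main setting and 26 moved beyond it. That error was counting error, except for the most frequent distances and repeat lengths. For these it was the SD over the 6 comparison arms. None changed sign beyond that error. Within it, the short arm ratio outside islands, 0.12 in the main setting, did change sign. It was -0.19 from -150 to 0 bp, -0.24 against the GC expectation and -0.04 with positions under 100 bp apart merged. Against the GC expectation, the short and long arm stood at 1.34 and 1.45 times the mean of the comparison arms, the long to short ratio was 1.08, the largest steps were -1.44 and -0.39, and the long arm island ratio was -0.48. Merging positions under 100 bp apart gave 1.10, 1.54 and 1.4 for the same 3 density ratios and a most frequent long arm distance of 185 bp. Leaving out overfull and empty windows gave 1.14 for the short arm. Ending the short arm at 39 Mb, a setting chosen after seeing the data, gave 1.22 and a long to short ratio of 1.32. With 3 bins on either side the steps were -2.40 and -0.73. Smoothing by 21 bp put the most frequent distance at 180 bp (short arm) and 183 bp (long arm), and maxima 1 to 3 gave repeats of 187 and 189 bp. Close pairs were 6.68 and 7.28% under 40 bp, 12.9 and 14.5% under 100 bp, and 8.92 and 9.12% in bins of 0.8 to 1.2 positions per kb. A start window of -150 to 0 bp gave -2.54 for the long arm inside islands and -0.54 outside them. The causes of these shifts were not tested, apart from the thresholds on close pairs, which count other distances. No paired analysis was possible because the 2 batches form 1 group and share a list that names neither. For the same reason no batch could be left out. Read depth behind a position is unknown, so an absent position cannot be told apart from a missed call.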
